A study of Rattus norvegicus with 11 samples.

Results

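Transcripts of the transforming growth factor beta (TGF-beta) and bone morphogenetic protein (BMP) pathways were measured in rat alveolar epithelial cells. The genes were chosen by symbol: the ligands Tgfb1, Tgfb2, Tgfb3 and Bmp4, the receptors Tgfbr1, Tgfbr2 and Tgfbr3, and the BMP target genes Id1, Id2 and Id3. The annotation used here gave 14 probe sets for 9 of these 10 genes, among 8740 probe sets tested and 4736 genes with a probe set. Tgfbr2 has no probe set there. Each probe set is a group of short probes that gives 1 value per array.

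Total RNA had been hybridised to 11 Affymetrix rat arrays. Per the descriptions and titles, 4 arrays held RNA of freshly isolated type I (TI) cells at day 0, 3 of type II (TII) cells at day 7 of culture and 4 of freshly isolated TII cells at day 0. TI cells are the thin cells across which gas diffuses, and TII cells secrete surfactant. The groups follow the descriptions and titles, since another field calls every array isolated TI cells. The labels used here give no strain, age or culture conditions and do not tell whether the arrays within a group were made from different animals. The p-values therefore measure the spread between these arrays, which may be technical.

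TGF-beta ligands are secreted in a latent form and, once released, join type II and type I receptor kinases that phosphorylate Smad transcription factors. BMP ligands signal in the same way through their own receptors and Smads, and secreted antagonists such as noggin and gremlin block them. The Id genes are direct BMP targets in many cells, and their proteins bind E proteins such as Tcf3 and keep them off DNA. In the lung, Bmp4 patterns the branching epithelium, and TGF-beta is best known for its role in fibrosis and in the loss of epithelial features in culture.

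The fresh groups carried the markers of their names, and the cultured TII cells had little surfactant signal. On a linear scale, the summed signal of 4 TI markers (Pdpn, Aqp5, Cav1 and Ager) was 9303 to 9930 on fresh TI arrays, 1953 to 2786 on cultured TII arrays and 890 to 963 on fresh TII arrays. The sum of 4 measured surfactant protein genes was 2801 to 8772 on fresh TI, 331 to 625 on cultured TII and 21936 to 23473 on fresh TII arrays, so the fresh TI arrays still carried surfactant signal. The sum of 4 airway markers, Scgb1a1 among them, was 443 to 490, 412 to 682 and 4202 to 5055 in the same order, highest on fresh TII arrays as Bmp4, Id2 and the brighter Id1 probe set were. Its part in those differences was not tested. Among the fresh TI arrays, replicate 4 stood furthest apart: its correlation with the other arrays of its group was 0.978 to 0.991 over all probe sets, against 0.995 to 0.998 among fresh TII arrays. Array medians lay between 5.43 and 5.51 (log2). Results are given with and without that array where it moved them.

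In fresh TI against fresh TII cells, 8 of the 14 probe sets were higher and 3 were lower, at an adjusted p under 0.05 in limma, a linear model fitted over all 8740 probe sets. Of all probe sets 54.7% were called in that comparison, 34.3% higher and 20.4% lower. In culture, 3 were higher than in fresh TII cells and 5 were lower, against 33.4% of all probe sets (19.1% higher and 14.3% lower). Set against cultured TII cells, 7 were higher in fresh TI cells and 3 were lower, against 59.9% of all probe sets (35.7% higher and 24.2% lower). The 8 called higher in fresh TI cells fell to 5 without fresh TII replicate 1 or 2. The median difference of the 14 probe sets was 0.3, -0.16 and 0.27 (log2) in these comparisons, in that order, and that of all probe sets 0.12, -0.01 and 0.13. On 12 probe sets the fresh TI and fresh TII arrays did not overlap, 9 higher and 3 lower, where 50.7% of all probe sets did not overlap (31.3% higher and 19.5% lower). Cultured and fresh TII arrays did not overlap on 8, with 2 higher and 6 lower, against 43.3% of all (22.7% higher and 20.6% lower). Fresh TI and cultured TII arrays did not overlap on 9, with 7 higher and 2 lower, against 57.3% of all (34.1% higher and 23.2% lower). All 3 comparisons draw on the same 11 arrays, and each group serves in a pair of them, so they are not independent of each other.

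**Figure D1:**
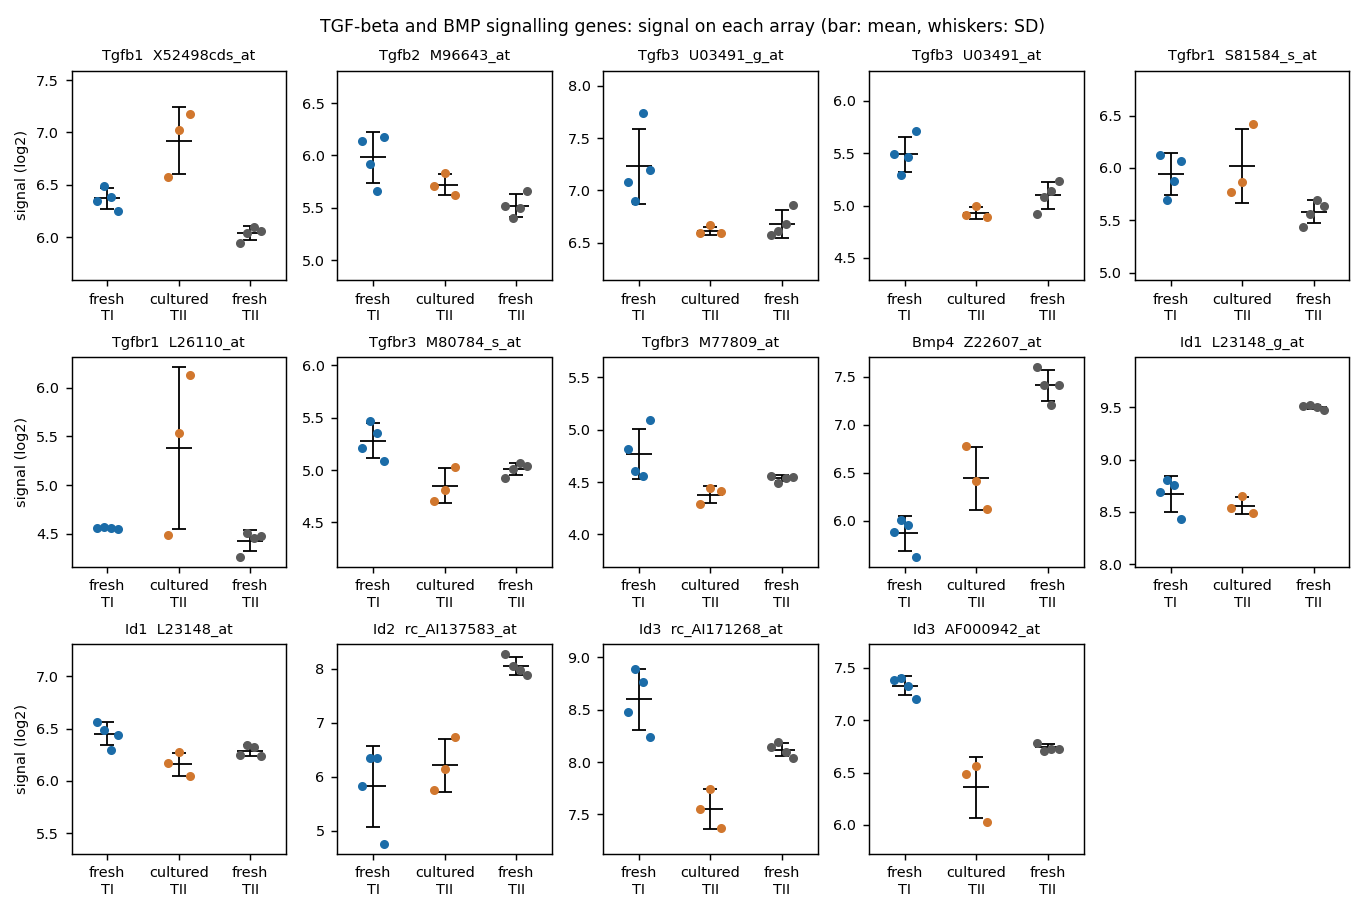
Signal (log2) of each of the 14 probe sets on every array, in fresh TI, cultured TII and fresh TII cells; points are arrays, the wide bar is the mean and the whiskers are the SD (n = 4, 3 and 4), and each panel has its own vertical range. Bmp4, Id2 and the brighter Id1 probe set were lower on every fresh TI and cultured TII array than on any fresh TII array, while both Id3 probe sets were highest in fresh TI and lowest in cultured TII cells.

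Among the 4 ligands, Bmp4 stood furthest from fresh TII cells in both other groups. Its signal (probe set Z22607_at) was 5.88, 6.01, 5.96 and 5.62 (log2) on the fresh TI arrays, 6.78, 6.41 and 6.12 on the cultured TII arrays and 7.6, 7.41, 7.2 and 7.41 on the fresh TII arrays. Fresh TII arrays were the highest throughout and fresh TI arrays the lowest, with no overlap between any groups. Bmp4 was lower in fresh TI than in fresh TII cells by a log2 difference of -1.54 ± 0.14 (SE), a 2.9-fold change (limma adjusted p = 1.44e-06). In culture the log2 difference from fresh TII cells was -0.97 ± 0.15, or 1.95-fold (limma adjusted p = 0.000172). Fresh TI and cultured TII cells differed as well, by -0.57 ± 0.15 (limma adjusted p = 0.00537). In bulk RNA such as this, fewer cells that express a gene and less RNA per cell cannot be told apart.

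Tgfb1, the isoform most widely expressed in adult tissue, moved the opposite way. Its signal (probe set X52498cds_at) was 6.34, 6.49, 6.38 and 6.25 on fresh TI arrays, 6.57, 7.02 and 7.18 on cultured TII arrays and 5.94, 6.04, 6.1 and 6.06 on fresh TII arrays. Again no groups overlapped, and here the cultured cells were the highest. Tgfb1 rose in culture by 0.88 ± 0.12 over fresh TII cells, a 1.84-fold change (limma adjusted p = 7.12e-05). It was lower in fresh TI than in cultured TII cells, by a log2 difference of -0.55 ± 0.12 (limma adjusted p = 0.00193). The step between fresh TI and fresh TII cells was the smaller one, at 0.33 ± 0.11 (limma adjusted p = 0.0256). That call ended without fresh TII replicate 1 or 2 or fresh TI replicate 2, where the adjusted p was 0.0699, 0.0512 and 0.0593.

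Tgfb2 and Tgfb3 encode the other isoforms, both prominent in development. Tgfb2 signal (probe set M96643_at) was 6.14, 5.92, 5.66 and 6.18 on fresh TI, 5.71, 5.83 and 5.62 on cultured TII and 5.52, 5.4, 5.5 and 5.66 on fresh TII arrays. The fresh TI arrays lay above the fresh TII arrays, with the closest pair equal at this rounding, and the cultured arrays overlapped both. Tgfb2 was higher in fresh TI than in fresh TII cells by 0.46 ± 0.11 (limma adjusted p = 0.00399), while the cultured cells differed from fresh TII by 0.2 ± 0.12 (limma adjusted p = 0.234). Against cultured TII cells the fresh TI difference was 0.26 ± 0.12 (limma adjusted p = 0.0757). It passed the threshold without fresh TI replicate 3, at 0.36 (adjusted p = 0.00828), and was 0.0884 with array weights (adjusted p = 0.535).

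Tgfb3 was measured by 2 probe sets. The brighter, U03491_g_at, read 7.08, 6.9, 7.74 and 7.2 on fresh TI, 6.59, 6.67 and 6.59 on cultured TII and 6.57, 6.61, 6.68 and 6.86 on fresh TII arrays. Every fresh TI array was above every array of both other groups, and the cultured and fresh TII arrays overlapped. Tgfb3 was higher in fresh TI than in fresh TII cells by 0.55 ± 0.14 (limma adjusted p = 0.00659) and higher than in cultured TII cells by 0.62 ± 0.15 (limma adjusted p = 0.00468). The dimmer, U03491_at, gave 0.39 ± 0.09 and 0.55 ± 0.1, also with no overlap. In culture the probe sets stood at -0.06 ± 0.15 and -0.16 ± 0.1 against fresh TII cells, and neither was called.

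Markers of fibroblasts and smooth muscle, cells that also make TGF-beta ligands, had their highest sums on the fresh TI arrays. Fresh TI cells had 7 of the 14 measured genes on that list higher than fresh TII cells and 0 lower, where 33% of all 4736 genes were higher and 21.2% lower. Their summed linear signal was 1851 to 3401 on fresh TI arrays, 1217 to 1671 on cultured TII arrays and 825 to 1081 on fresh TII arrays. The collagen Col3a1 was among the 7, at a mean of 9.33 in fresh TI and 6.82 in fresh TII cells, and so was Col1a1, at 8.91 and 7.6. Dcn and Acta2, also on the list, were not called, at -0.22 ± 0.32 and 0.02 ± 0.11. On fresh TI replicates 1 to 4 the fibroblast sum was 2369, 3401, 2017 and 1851. There the brighter Tgfb3 probe set read 7.08, 6.9, 7.74 and 7.2, and Tgfb2 read 6.14, 5.92, 5.66 and 6.18. The array with the highest sum had the lowest Tgfb3, and the one with the lowest sum had the highest Tgfb2. The part of these markers in the Tgfb2 and Tgfb3 differences was not tested. Endothelial markers summed to 482 to 638, 607 to 627 and 482 to 540 in fresh TI, cultured TII and fresh TII cells. Edn1, on that list, averaged 4.53, 7.73 and 6.24 (log2) in the same order. Of the 8 measured, 4 were higher and 1 lower in fresh TI than in fresh TII cells, against the same 33% and 21.2% of all genes. Fresh TI cells had 5 of them higher and 1, Edn1, lower than cultured TII cells, against 34.2% and 25.8% of all genes. Markers of leukocytes and macrophages summed to 638 to 698, 692 to 1092 and 576 to 627. In culture 4 of 15 of them, Cd48, Cd53, Itgam and Lyn, were higher and 0 lower, against 20.5% and 14% of all genes. Ptprc and Csf1r, also on the list, were not called in culture, at -0.19 ± 0.09 and 0.08 ± 0.1. Ptprc averaged 5.99 in fresh TI, 5.36 in cultured TII and 5.56 in fresh TII cells. The sum of the leukocyte and macrophage list was 692, 811 and 1092 on cultured TII replicates 1 to 3. There Tgfb1 read 6.57, 7.02 and 7.18 and the brighter Tgfbr1 probe set 5.77, 5.87 and 6.42. The array with the highest sum was the highest for both genes, and the part of these markers in the rise of Tgfb1 and Tgfbr1 in culture was not tested.

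Among the receptors, Tgfbr1 encodes the type I kinase that passes the TGF-beta signal to Smad2 and Smad3. On its brighter probe set, S81584_s_at, the signal was 6.12, 5.69, 5.88 and 6.07 on fresh TI, 5.77, 5.87 and 6.42 on cultured TII and 5.44, 5.56, 5.69 and 5.64 on fresh TII arrays. All cultured arrays exceeded the fresh TII arrays, and the fresh TI arrays overlapped with both groups, at the lower end by a single array. Tgfbr1 was called higher in culture, by 0.44 ± 0.15 (limma adjusted p = 0.0368), and in fresh TI than in fresh TII cells, by 0.36 ± 0.14 (limma adjusted p = 0.0427). Neither call held up well: the culture difference fell to 0.24 without cultured TII replicate 3 (adjusted p = 0.177), and the fresh TI call ended after quantile normalization (adjusted p = 0.0502) and without any 1 of 7 of the 8 arrays compared.

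The dimmer Tgfbr1 probe set, L26110_at, read 4.56, 4.57, 4.56 and 4.55 on fresh TI arrays, 4.49, 5.53 and 6.13 on cultured TII arrays and 4.26, 4.51, 4.46 and 4.48 on fresh TII arrays. A pair of cultured arrays stood far above all other arrays, and the remaining one lay among them. The mean was 0.96 ± 0.26 higher in culture than in fresh TII cells (limma adjusted p = 0.0122). It fell to 0.58 without cultured TII replicate 3, was 1.4 without replicate 1 and ended as a call without replicate 2 (0.88, adjusted p = 0.0526). Fresh TI cells were lower than cultured TII cells on it, by a log2 difference of -0.82 ± 0.26 (limma adjusted p = 0.0172), against -0.08 ± 0.15 on the brighter probe set (limma adjusted p = 0.644). Without cultured TII replicate 3 these were -0.45 (adjusted p = 0.0837) and 0.12 (adjusted p = 0.416).

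Tgfbr3 encodes betaglycan, the co-receptor that presents ligand, Tgfb2 above all, to the signalling receptors. Its brighter probe set, M80784_s_at, read 5.21, 5.47, 5.35 and 5.09 on fresh TI, 4.7, 4.81 and 5.03 on cultured TII and 4.92, 5.01, 5.07 and 5.04 on fresh TII arrays. The fresh TI arrays were the highest, narrowly so against fresh TII, and the cultured arrays ran from below the fresh TII arrays into their range. Tgfbr3 was higher in fresh TI than in cultured TII cells on both probe sets (the dimmer is M77809_at), by 0.43 ± 0.1 (limma adjusted p = 0.0031) and 0.39 ± 0.11 (limma adjusted p = 0.00894). Against fresh TII cells the differences were 0.27 ± 0.09 (limma adjusted p = 0.0286) and 0.23 ± 0.1 (limma adjusted p = 0.068), against a median of 0.12 over all probe sets. The 0.27 was no longer called after quantile normalization, at 0.2 (adjusted p = 0.118), or with an equal median and standard deviation on every array (adjusted p = 0.101). The call also ended without fresh TII replicate 1 or 2 or fresh TI replicate 2 or 3 (adjusted p = 0.078, 0.0571, 0.0742 and 0.0645). Both Tgfbr3 probe sets were dimmer than the median probe set, as were the dimmer ones of Tgfbr1 and Tgfb3.

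**Figure D2:**
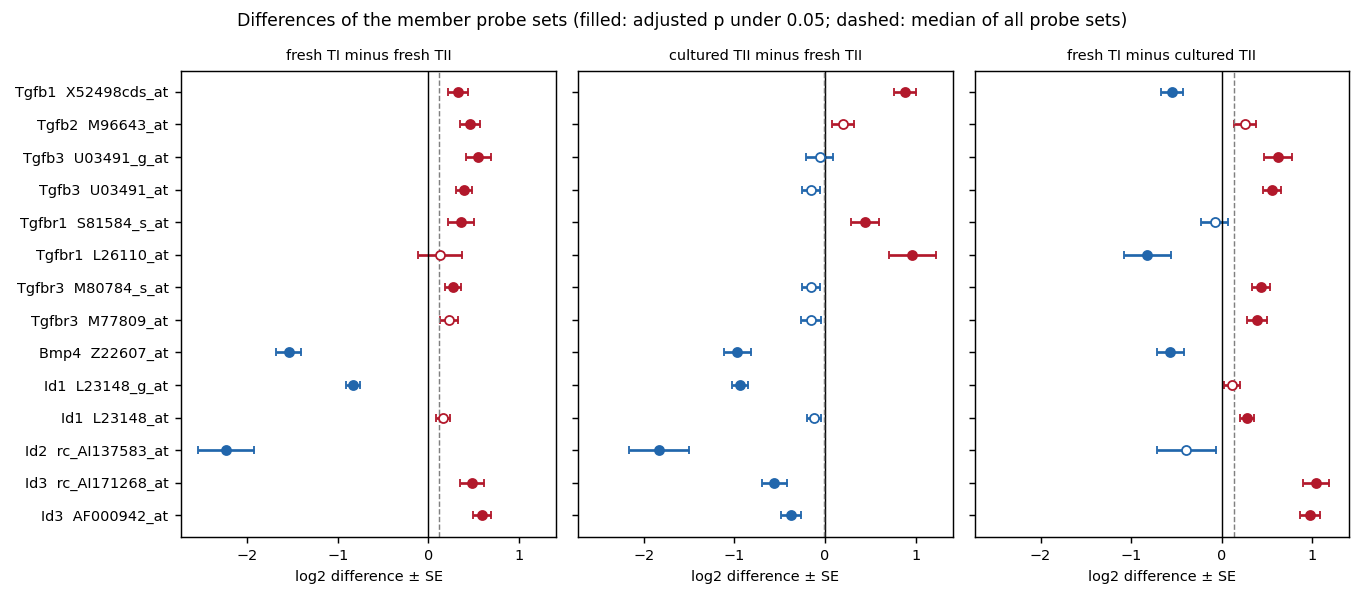
Log2 differences (horizontal axis, with the standard error from the model) of the 14 probe sets in 3 panels, fresh TI against fresh TII, cultured against fresh TII, and fresh TI against cultured TII; filled points were called, red is higher and blue lower in the group named at the left of the minus sign, and the dashed line is the median of all probe sets. Id2 at -2.23 and Bmp4 at -1.54 stood furthest from 0 in fresh TI cells, and Id3 was to the right of 0 there and to the left in culture.

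The Id genes encode helix-loop-helix proteins that lack a DNA-binding region. Id2 differed from fresh TII cells by more than any other of the 9 genes, in fresh TI and in cultured TII cells. Its signal (probe set rc_AI137583_at) was 5.82, 6.35, 6.35 and 4.75 on fresh TI arrays, 5.76, 6.14 and 6.73 on cultured TII arrays and 8.28, 8.05, 7.98 and 7.88 on fresh TII arrays. The fresh TII arrays were all more than 1 log2 unit above the others, whose values were mixed and widely spread. Id2 was lower in fresh TI than in fresh TII cells by a log2 difference of -2.23 ± 0.31, a 4.69-fold change (limma adjusted p = 7.45e-05). It fell by 1.83 ± 0.33 in culture, or 3.57-fold (limma adjusted p = 0.000695). Fresh TI minus cultured TII was -0.39 ± 0.33 (limma adjusted p = 0.313).

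The spread of Id2 among the fresh TI arrays went with their surfactant signal. The summed linear signal of the surfactant protein genes was 5608, 8313, 8772 and 2801 on fresh TI replicates 1 to 4, where Id2 read 5.82, 6.35, 6.35 and 4.75. The fresh TI array with the least surfactant signal had the least Id2. On cultured TII replicates 1 to 3 the order was the reverse: the sum was 625, 395 and 331, and Id2 read 5.76, 6.14 and 6.73. The part of the surfactant signal in the Id2 differences was not tested. Without fresh TI replicate 4, the Id2 difference from fresh TII cells was -1.87 (limma adjusted p = 1.27e-05), and that from cultured TII cells was -0.04 (limma adjusted p = 0.894).

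Id1 was measured by 2 probe sets made from the same sequence record, and they disagreed. The brighter, L23148_g_at, read 8.69, 8.8, 8.76 and 8.43 on fresh TI, 8.54, 8.65 and 8.49 on cultured TII and 9.51, 9.52, 9.5 and 9.47 on fresh TII arrays. Fresh TII arrays were higher than every array of the other groups, which overlapped each other. Here Id1 was lower in fresh TI than in fresh TII cells by a log2 difference of -0.83 ± 0.08 (limma adjusted p = 4.2e-06), or -0.53 after quantile normalization, and it fell in culture by 0.94 ± 0.09 (limma adjusted p = 2.42e-06). The dimmer, L23148_at, read 6.56, 6.49, 6.3 and 6.44 on fresh TI, 6.17, 6.28 and 6.05 on cultured TII and 6.25, 6.34, 6.32 and 6.24 on fresh TII arrays. It differed by 0.16 ± 0.08 (limma adjusted p = 0.0879) and -0.12 ± 0.08 (limma adjusted p = 0.31) in the same comparisons, so the Id1 result rests on a single probe set. Which of them reads Id1 more truly was not tested.

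The fresh TI to cultured TII difference of Id1 also depended on the scaling. On the brighter probe set it was 0.11 ± 0.09 (limma adjusted p = 0.281), and 0.5 after quantile normalization (adjusted p = 6.73e-05). Without fresh TI replicate 4 it was 0.19 (adjusted p = 0.0332). On the dimmer it was 0.28 ± 0.08 (limma adjusted p = 0.0106), and it was not called with array weights (0.19, adjusted p = 0.0671).

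Id3 was lower in culture, as Id2 and the brighter Id1 probe set were, but higher in fresh TI cells, where those were lower. Its brighter probe set, rc_AI171268_at, read 8.48, 8.89, 8.77 and 8.24 on fresh TI arrays, 7.55, 7.74 and 7.37 on cultured TII arrays and 8.14, 8.19, 8.1 and 8.04 on fresh TII arrays. The groups did not overlap, with fresh TI the highest and cultured TII the lowest. Id3 was higher in fresh TI than in fresh TII cells by 0.48 ± 0.13 (limma adjusted p = 0.00757), or 0.76 after quantile normalization, and it fell in culture by 0.56 ± 0.14 (limma adjusted p = 0.00632).

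The other Id3 probe set, AF000942_at, from a different sequence record, read 7.38, 7.4, 7.33 and 7.2, then 6.49, 6.56 and 6.03, then 6.78, 6.71, 6.73 and 6.73 in fresh TI, cultured TII and fresh TII cells, again with no overlap. It gave 0.59 ± 0.1 (limma adjusted p = 0.000493) for fresh TI minus fresh TII and -0.38 ± 0.11 (limma adjusted p = 0.0171) for culture, the last of which ended without cultured TII replicate 3 (-0.22, adjusted p = 0.0611). Between fresh TI and cultured TII cells Id3 differed 2.06-fold on the brighter probe set and 1.96-fold on the other, at 1.04 ± 0.14 and 0.97 ± 0.11 (log2, limma adjusted p = 4.9e-05 and 1.39e-05).

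The promoters of the Id genes and of Bmp4 are shown because Bmp4 and Id2 stood furthest from fresh TII cells and the Id genes parted from each other in fresh TI cells. The sequences are from RefSeq on build GRCr8, 250 bases before to 50 after the start of the gene, 5′ to 3′ on the gene's strand: Id1 at chr3:161671314-161671613 (plus strand), Id2 at chr6:47470946-47471245 (minus), Id3 at chr5:153656041-153656340 (plus) and Bmp4 at chr15:22101884-22102183 (minus). Capitals mark matches on either strand to CAGAC, a core of Smad-binding elements, to GGCGCC, a GC-rich element bound by BMP Smads, to CCAAT, and to TATAAA.
Id1: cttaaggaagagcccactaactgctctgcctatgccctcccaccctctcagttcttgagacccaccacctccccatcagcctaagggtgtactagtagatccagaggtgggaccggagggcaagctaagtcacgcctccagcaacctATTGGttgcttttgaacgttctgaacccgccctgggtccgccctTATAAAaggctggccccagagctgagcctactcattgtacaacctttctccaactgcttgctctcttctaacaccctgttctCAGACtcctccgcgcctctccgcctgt
Id2: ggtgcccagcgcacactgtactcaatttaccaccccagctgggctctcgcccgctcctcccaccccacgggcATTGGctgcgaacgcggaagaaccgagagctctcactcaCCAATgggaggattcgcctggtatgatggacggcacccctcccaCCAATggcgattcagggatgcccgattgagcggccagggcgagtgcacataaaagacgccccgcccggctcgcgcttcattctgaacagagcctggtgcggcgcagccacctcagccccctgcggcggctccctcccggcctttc
Id3: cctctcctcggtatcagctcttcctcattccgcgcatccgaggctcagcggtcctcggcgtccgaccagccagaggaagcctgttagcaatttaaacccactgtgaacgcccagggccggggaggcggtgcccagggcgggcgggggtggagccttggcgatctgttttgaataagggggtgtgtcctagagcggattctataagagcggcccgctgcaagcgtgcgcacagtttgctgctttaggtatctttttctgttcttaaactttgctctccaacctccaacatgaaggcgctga
Bmp4: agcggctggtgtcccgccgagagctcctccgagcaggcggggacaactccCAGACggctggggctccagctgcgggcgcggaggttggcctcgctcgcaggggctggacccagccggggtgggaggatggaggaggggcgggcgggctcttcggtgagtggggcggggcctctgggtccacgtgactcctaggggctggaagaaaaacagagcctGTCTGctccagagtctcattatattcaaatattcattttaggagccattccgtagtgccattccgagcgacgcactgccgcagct
Id1 held 1 CCAAT match, 1 TATAAA match and 1 CAGAC match, Id2 held 3 CCAAT matches, Bmp4 held 2 CAGAC matches and Id3 held none of the 4, and no matches overlapped. Of 33469 rat promoters of the same length 50.1% held CAGAC, 11% GGCGCC, 37.5% CCAAT and 14.2% TATAAA. A match is a description of these letters only. All 9 genes had a promoter in the table, and GGCGCC was found in those of Tgfbr1 and Tgfbr3.

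The genes whose profile over the 11 arrays lay nearest were found for the 3 genes with group means at least 1 log2 unit apart: Bmp4, Id2 and Id3. Likeness was the root mean square distance between values centred on each gene's mean. For Bmp4 they were Cpt1a, the gate to mitochondrial fatty acid oxidation, at 0.16, Azin1, an inhibitor of antizyme, at 0.187 and the growth inhibitor Btg1 at 0.196, where Bmp4 itself varied by 0.688 about its mean. For Id2 they were the nuclear receptor coactivator Pnrc1 at 0.323, the protease Ctsc at 0.353 and the lipogenic enzyme Acly at 0.371, where Id2 varied by 1.102. For Id3 they were the chemokine Cxcl10 at 0.156, the water channel Aqp4 at 0.161 and Mindy2 at 0.197, where Id3 varied by 0.449. The genes were chosen by this distance, so a shared order of the groups follows from the choice. Those near Bmp4 and Id2 were highest in fresh TII cells, and those near Id3 were highest in fresh TI and lowest in cultured TII cells. The ones near Id3 were dim: each averaged 5.4 or less in every group, where the median probe set averaged 5.49.

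The rest of the pathway was read from a list of 72 other genes, of which 45 were measured, with the brightest probe set standing for a gene. Among them 11 rose and 6 were lower in fresh TI against fresh TII cells, which is 37.8% against 54.2% of all 4736 genes (33% higher and 21.2% lower). In culture 12 rose and 2 fell, 31.1% against 34.6% of all genes (20.5% higher and 14% lower). Fresh TI cells had 8 higher and 18 lower than cultured TII cells, 57.8% against 60% of all genes. In that comparison 17.8% of the list was higher against 34.2% of all genes, and 40% was lower against 25.8%.

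The extracellular regulators, a class with genes that hold ligands latent, release them or block them, changed most in culture. Of 13 measured 9 were called higher and 0 lower in cultured than in fresh TII cells, where 20.5% of all genes were called higher. Against cultured TII cells, fresh TI cells had 11 of the 13 lower and 1 higher, where 25.8% of all genes were lower. Biglycan (Bgn), a matrix proteoglycan that binds TGF-beta and BMP4, rose in culture by 2.63 ± 0.1 (limma adjusted p = 4.48e-10). Furin, a convertase that cleaves TGF-beta and BMP precursors, rose by 1.19 ± 0.17 (limma adjusted p = 0.0001), although its other probe set stood at 0.18. The activin antagonist follistatin (Fst) rose by 1.18 ± 0.12 (limma adjusted p = 6.24e-06) and the follistatin-like protein Fstl1 by 0.89 ± 0.15 (limma adjusted p = 0.000432).

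Others in this class, named after their values were seen, rose in culture too. The BMP antagonist noggin (Nog) averaged 6.02 in cultured and 5.2 in fresh TII cells, a rise of 0.81 ± 0.13 (limma adjusted p = 0.000346). The integrin chain Itgav, part of receptors that free latent TGF-beta, rose by 0.83 ± 0.1 (limma adjusted p = 3.01e-05). Ltbp2 and Ltbp3, named for the latent TGF-beta binding protein family, rose by 0.63 ± 0.09 and 0.56 ± 0.08. Ltbp1, which tethers latent TGF-beta to matrix, followed another course: it averaged 6.1 in fresh TI, 7.54 in cultured TII and 7.63 in fresh TII cells. It was lower in fresh TI cells than in fresh TII by -1.53 ± 0.09 (limma adjusted p = 3.6e-08) and lower than in cultured TII by -1.44 ± 0.1 (limma adjusted p = 1.64e-07). Nbl1, a secreted BMP antagonist, was higher in fresh TI cells than in either, by 1.01 ± 0.12 against fresh TII and 0.94 ± 0.13 against cultured TII.

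**Figure D3:**
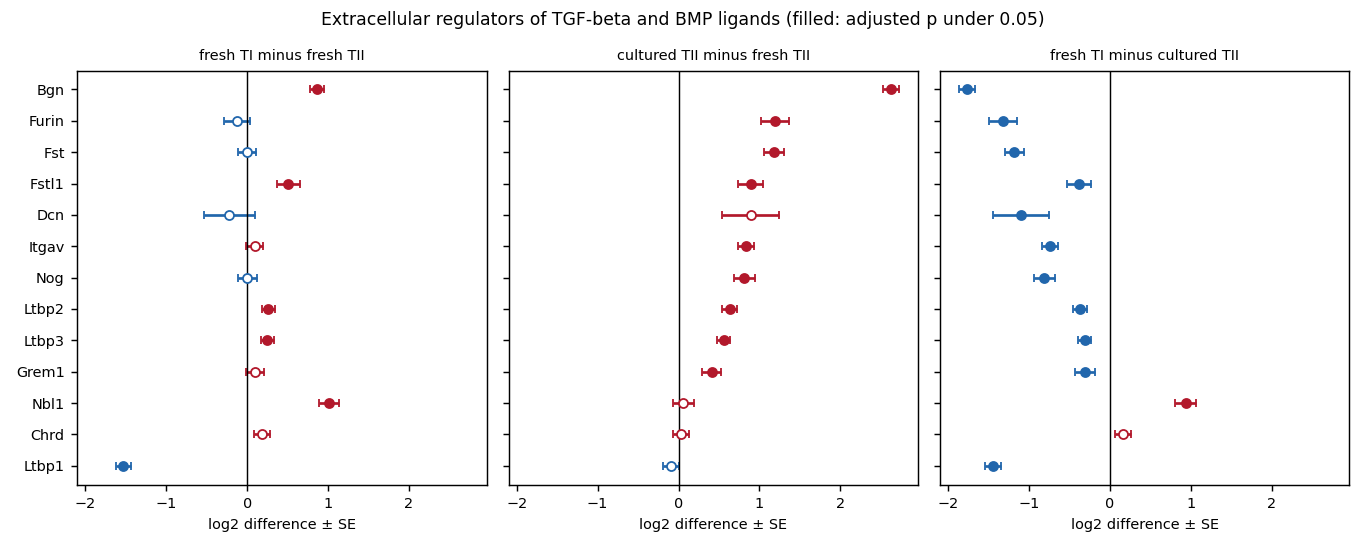
Log2 differences (horizontal axis, with the standard error from the model) of 13 extracellular regulators in panels for fresh TI against fresh TII, cultured against fresh TII, and fresh TI against cultured TII; filled points were called. In the middle panel 9 genes from Bgn down to Grem1 were called to the right of 0, with decorin (Dcn) among them but not called, while Ltbp1 and Nbl1 stood out in the panels with fresh TI cells.

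Of 13 other ligands, 1 was higher and 1 lower in culture, and 2 were higher and 2 lower in fresh TI than in fresh TII cells, against the shares of all genes given above. Fresh TI cells had 1 higher and 3 lower than cultured TII cells, against 34.2% and 25.8% of all genes. Bmp3, which opposes osteogenic BMPs in bone, averaged 4.43 in fresh TI, 4.26 in cultured TII and 6.93 in fresh TII cells. Like Bmp4 it was lower in fresh TI than in fresh TII cells, by a log2 difference of -2.5 ± 0.13 (limma adjusted p = 6.77e-09), and it fell by 2.67 ± 0.14 (limma adjusted p = 7.04e-09) in culture. Another Bmp3 probe set gave -4.88 and -4.64. Gdf15, a stress-induced ligand, was lower in fresh TI cells than in fresh TII, by -0.53 ± 0.1 (limma adjusted p = 0.000983). The one that rose in culture, named after its values were seen, was Bmp6, at 0.52 ± 0.11 (limma adjusted p = 0.00235).

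Of 8 other receptors 1 was higher and 1 lower in culture, and 1 was higher and 0 lower in fresh TI than in fresh TII cells. Fresh TI cells had 3 of the 8 higher and 1 lower than cultured TII cells, and 1 of 6 Smads higher and 2 lower. Of all genes 20.5% were called higher and 14% lower in culture. Between fresh TI and fresh TII cells 33% were higher and 21.2% lower, and against cultured TII cells 34.2% and 25.8%. Acvrl1, a type I receptor best known in endothelium, was higher in fresh TI cells than in fresh TII by 0.54 ± 0.09 (limma adjusted p = 0.000336). Acvr2b, a receptor for activins, fell in culture by 0.27 ± 0.07 (limma adjusted p = 0.0087), with -0.12 on its other probe set (adjusted p = 0.451). That call ended without cultured TII replicate 1 (limma adjusted p = 0.0527). The BMP receptor Acvr1, named after its values were seen, rose in culture by 0.43 ± 0.13 (limma adjusted p = 0.0233). Its call ended without cultured TII replicate 1 (0.34, limma adjusted p = 0.103) or fresh TII replicate 2 (limma adjusted p = 0.0518). By their brightest probe sets 0 of 6 Smads were called in culture by limma, where 1 higher and 1 lower had an unadjusted p under 0.05, and 3 were lower in fresh TI than in fresh TII cells: the shared Smad4 by -0.32 ± 0.1, the BMP Smad1 by -0.3 ± 0.09 and, named after its values were seen, the TGF-beta Smad2 by -0.27 ± 0.06 (limma adjusted p = 0.0159, 0.0152 and 0.00364). A second Smad1 probe set was lower by more, at -0.89 ± 0.11 in fresh TI and -0.63 ± 0.12 in cultured TII against fresh TII cells (limma adjusted p = 3.5e-05 and 0.00108). Fkbp1a, which holds type I receptors inactive, rose in culture by 1.66 ± 0.1 (limma adjusted p = 4.39e-08), with 0.99 to 1.45 on its other probe sets.

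Of the E proteins that Id proteins bind, Tcf4 was higher in fresh TI than in fresh TII cells by 0.34 ± 0.08 (limma adjusted p = 0.00267). Tcf4 was dim, at means of 4.55 and 4.21, and its difference was 0.23 after quantile normalization (limma adjusted p = 0.0229). Tcf12 was higher in fresh TI than in cultured TII cells by 0.44 ± 0.07 (limma adjusted p = 0.000316). Of the 3 on the list, 2 were called higher in fresh TI than in fresh TII cells, against 33% of all genes, and 0 in either direction in culture, where 1 was lower at an unadjusted p under 0.05 in limma. Tcf12 was not settled between its probe sets: the brightest was 0.25 higher in fresh TI than in fresh TII cells (limma adjusted p = 0.00976), the other was lower by -0.19 ± 0.07 (limma adjusted p = 0.0349), and the other did not pass the threshold against cultured cells (adjusted p = 0.956).

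A list of 24 genes that TGF-beta induces in many cell types had 18 measured members. Of these 9 rose and 5 fell in culture, which is 50% and 27.8% against 20.5% and 14% of all genes, with a median of 0.55 against -0.01 for all genes. In fresh TI against fresh TII cells 11 were higher and 3 lower, which is 61.1% and 16.7% against 33% and 21.2% of all genes, with a median of 0.33 against 0.11. Fibronectin (Fn1) rose in culture by 5.68 ± 0.14, the actin-binding Tagln by 5.03 ± 0.12, the matrix cross-linker Lox by 4.39 ± 0.28 and the cell cycle inhibitor Cdkn2b by 3.42 ± 0.12. The other probe sets of Fn1 gave 2.08 to 3.95 and those of Lox 1.14 to 2.64. In fresh TI cells Lox was higher than in fresh TII by 3.48 ± 0.26, Col3a1 by 2.52 ± 0.47, Fn1 by 2.26 ± 0.13, elastin (Eln) by 1.82 ± 0.2 and Cdkn2b by 1.64 ± 0.11. The other probe sets of Lox gave 0.75 to 1.23 there, and those of Fn1 0.14 (not called) to 0.9. Of the 18 genes 5 also stand on the fibroblast list and 3 among the extracellular regulators, and matrix genes have many inducers besides TGF-beta.

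Other members of the same list fell. The transcription factors Junb and Klf10 fell in culture by 2.03 ± 0.16 and 0.87 ± 0.13, and the leucine zipper protein Tsc22d1 by 1.89 ± 0.12. The other Klf10 probe sets stood at -1.04 and -0.2 in culture, the last not called (limma adjusted p = 0.0792). In fresh TI cells these genes were lower than in fresh TII as well, by -1.45 ± 0.15 for Junb, -0.42 ± 0.12 for Klf10 and -2.54 ± 0.11 for Tsc22d1. There the other Klf10 probe sets stood at -0.25 and 0.06, neither called. Elastin was called lower in culture, at -0.64 ± 0.21 (limma adjusted p = 0.0341), a call kept under 9 of 14 alternatives. Sparc, a matrix glycoprotein, was called lower in culture on its brightest probe set, at -0.43 ± 0.09, while its others stood at 3.24 to 4.1, so its direction was not settled. Tagln, among the genes that rose most in culture, was much lower in fresh TI than in cultured TII cells, by -4.75 ± 0.12, as was Fn1, by -3.42 ± 0.14. Col3a1 and elastin stood the other way, at 3.28 ± 0.5 and 2.47 ± 0.21.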

How the data were processed

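The authors deposited 1 table of log2 signals per probe set, with values between 1.366 and 13.163, for 11 arrays. Their probe summarization, background correction, normalization and genome build are not given in the sources used here, and the log2 scale of the deposited values was read from their range. No further normalization was applied. After 59 control probe sets were left out, 8740 of 8799 were tested. GEO's platform annotation, which can be old, named exactly 1 gene for 7006 probe sets, several for 308 and none for 1426. Of the 7006, 6985 matched a RefSeq gene by Entrez identifier.

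Group means were fitted together with limma 3.58.1 in R 4.3.3 (lmFit, contrasts, eBayes) on all probe sets, and Benjamini-Hochberg adjustment ran over all 8740 within each comparison. The threshold for a call was an adjusted p of 0.05. A fold is the power of 2 of a log2 difference. Errors are the SE of the model unless given as SD. The fit was tested on simulated data. Where a gene had several probe sets, all are given for the 9 genes described, and the brightest by its mean stood for any other gene. Levels were not compared between probe sets. In each list up to 5 genes per direction with the largest called difference were open to be named, and a gene named outside this rule is marked so. The genes and the lists were chosen with earlier results of these data known. Promoters were searched with Python 3.11.15. Alternatives were quantile normalization, equal median and standard deviation on every array, a filter on dim probe sets, an intensity trend, a fit on the groups compared only, array weights, a replicate block and leaving out each array. With 3 or 4 arrays a group, the number of arrays limits the precision.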

Additional observations from a re-analysis of the deposited data

How the results depend on the processing

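Of the 29 called differences of the 14 probe sets, 21 kept their direction and their call under every alternative run, and of the 62 called differences named for other genes 58 did. The brightness filter left out 4 of the 14, which then have no value. Between fresh TI and fresh TII cells Id2 ranged from -2.41 to -1.87 over the alternatives, Bmp4 from -1.61 to -1.45 and the brighter Id1 probe set from -0.87 to -0.53. The difference of fresh TI minus cultured TII on the brighter Tgfbr1 probe set, not called, turned sign without fresh TI replicate 2 (0.002) and without cultured TII replicate 3 (0.12), within a range of -0.207 to 0.12. With only probe sets brighter than the median, which tests fewer of them, 2671 were called between fresh TI and fresh TII cells (1337 higher) and 2993 between fresh TI and cultured TII cells (1375 higher), against 4783 (2996 higher) and 5235 (3124 higher) with all. With an equal median and standard deviation on every array, 52.9% of the calls between fresh TI and fresh TII cells were higher, against 62.6% as deposited, and 49.7% against 59.7% between fresh TI and cultured TII cells. The median of all probe sets was then 0.0422 and 0.0233. Calls lost or gained by scaling concerned Tgfbr3 and Tgfbr1 in fresh TI against fresh TII cells and Id1 in fresh TI against cultured TII cells. The SD over all probe sets was 1.77 to 1.85 on fresh TI arrays, 1.95 to 1.97 on cultured TII arrays and 1.92 to 1.95 on fresh TII arrays. The part of this narrower spread of the fresh TI arrays in their differences was not tested. With the replicate block, 4787 probe sets were called between fresh TI and fresh TII, 2750 between cultured and fresh TII and 4754 between fresh TI and cultured TII cells, and no call of the 14 probe sets changed. Same-numbered arrays of different groups deviated together with correlations of -0.2 to 0.28, and arrays of different numbers with -0.27 to 0.23. With 3 or 4 arrays a group, these values cannot tell whether same-numbered arrays were paired.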
